A study of Homo sapiens with 28 samples.

Results

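A set of 10 genes of fatty acid synthesis and desaturation was followed across tumors and cultures of HCT116, an established human colorectal carcinoma cell line. They were FASN, ACACA, SCD, FADS1, FADS2, ELOVL1, ELOVL5, ELOVL6, SREBF1 and ACSS2, taken by gene symbol from the 58278 genes counted, and all 10 had enough reads to be tested in tumors and in cultures. The RNA-seq libraries numbered 28. HCT116 Luciferase-GFP cells were injected under the skin of male NOD SCID mice aged 5 weeks, and from 8 days after implantation the mice received daily doses by oral gavage for 23 days. The 4 tumor groups were Control (vehicle, 3 tumors), Palbociclib (100 mg/kg/day of this CDK4 and CDK6 inhibitor, 5 tumors), Telaglenastat (150 mg/kg/day of this glutaminase inhibitor, spelled Telaglenestat in some labels, 4 tumors) and Combination (both drugs at those doses, 4 tumors). The 4 culture groups held 3 cultures each, grown without drug from tumors of the Control, Palbociclib, Telaglenastat and Combination mice. Which tumor gave rise to which culture was not recorded in the sources used here, so cultures were not paired with tumors. NOD SCID mice lack functional B and T lymphocytes, and all tumors descend from 1 cell line.

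Cells build long-chain fatty acids from acetyl-CoA. ACSS2 makes acetyl-CoA from acetate, ACACA (acetyl-CoA carboxylase) converts it into malonyl-CoA in the committed step, and FASN (fatty acid synthase) joins these units into palmitate. The ELOVL enzymes lengthen fatty acids. SCD, FADS1 and FADS2 introduce double bonds, SCD into saturated fatty acids and both FADS enzymes into polyunsaturated ones. SREBF1 encodes SREBP-1, a transcription factor held in the endoplasmic reticulum until lipids run low, which then activates most of the other genes. Glutamine is one source of the citrate from which cytosolic acetyl-CoA is made.

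Promoter sequences are shown for 4 genes: SCD, the most abundant gene, FADS1 and FADS2, which overlap on opposite strands and differed in their changes, and SREBF1, the regulator. The sequences are from RefSeq (GRCh38.p14) and run from 250 bases before the transcription start to 50 bases after it, 5′ to 3′ in the direction of transcription. Capitals mark matches, on either strand, to CCAAT (the NF-Y box), GGGCGG (the GC box), CACGTG (an E-box) or TCACNCCAC (a sterol regulatory element), none of which overlapped in these 4 sequences.
SCD, chr10:100346983-100347282, plus strand: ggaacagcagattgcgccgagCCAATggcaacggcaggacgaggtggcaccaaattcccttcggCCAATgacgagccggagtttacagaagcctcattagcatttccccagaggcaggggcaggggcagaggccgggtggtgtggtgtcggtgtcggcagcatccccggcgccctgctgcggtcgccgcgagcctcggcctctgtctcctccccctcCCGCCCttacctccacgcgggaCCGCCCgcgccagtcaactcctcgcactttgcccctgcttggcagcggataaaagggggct
FADS1, chr11:61816954-61817253, minus strand: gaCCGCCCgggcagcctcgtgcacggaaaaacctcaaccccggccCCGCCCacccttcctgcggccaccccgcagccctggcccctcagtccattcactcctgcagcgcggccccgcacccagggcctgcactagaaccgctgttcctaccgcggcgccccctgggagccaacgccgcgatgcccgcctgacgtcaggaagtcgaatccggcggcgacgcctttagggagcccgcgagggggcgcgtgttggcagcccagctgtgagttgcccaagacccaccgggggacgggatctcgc
FADS2, the second of 2 listed starts, chr11:61816154-61816453, plus strand: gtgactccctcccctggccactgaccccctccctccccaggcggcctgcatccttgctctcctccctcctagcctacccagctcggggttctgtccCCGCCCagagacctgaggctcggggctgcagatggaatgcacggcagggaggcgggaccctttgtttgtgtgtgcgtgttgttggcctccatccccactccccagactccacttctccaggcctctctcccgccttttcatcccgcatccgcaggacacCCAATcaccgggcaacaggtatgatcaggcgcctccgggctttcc
SREBF1, chr17:17836937-17837236, minus strand: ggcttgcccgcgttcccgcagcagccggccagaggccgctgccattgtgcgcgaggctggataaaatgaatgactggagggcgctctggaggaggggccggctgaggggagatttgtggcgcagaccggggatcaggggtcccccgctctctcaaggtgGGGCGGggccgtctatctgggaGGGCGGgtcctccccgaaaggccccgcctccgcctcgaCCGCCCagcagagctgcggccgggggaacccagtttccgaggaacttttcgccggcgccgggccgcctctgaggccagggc
The start of FADS1 lay 599 bases downstream of this start of FADS2, on the opposite strand. The table held 13 promoters for 9 of the genes and none for FASN. A CCAAT was found in 7 of the 13, against 34.6% of the 35116 promoters in the table. GGGCGG was found in 10 of 13, against 45.0% of all. CACGTG was found in 1 (ELOVL5), against 7.26% of all. TCACNCCAC was found in none of the 13, against 1.13% of all. Matches overlapped in 2 ACACA promoters and in that of ELOVL1. These are letter matches and say nothing of whether a factor binds.

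Tumor libraries held 6273834 to 10617936 counted reads and culture libraries 7198540 to 13815675, with Telaglenastat tumors at 6463239 to 6853368 and Control tumors at 7539298 to 8849414. Libraries differed, by group, in how counts depended on the GC content of genes. A gene's log2 expression relative to its mean over libraries rose by 0.447 ± 0.00489 (SD, n = 3) per 10 percentage points of GC in Control tumors and by 0.48 ± 0.137 (n = 5) in Palbociclib tumors. It changed by -0.286 ± 0.0462 (n = 4) in Telaglenastat tumors and by -0.134 ± 0.0681 (n = 4) in Combination tumors. Palbociclib tumor 2 (0.238), Telaglenastat culture 2 (0.36) and Control culture 2 (-0.2525) stood apart from their groups. Since FASN and SREBF1 have GC-rich exons (65.3% and 63.5%) and ELOVL5 and ELOVL6 do not (42.9% and 42.7%), every test was also run after correcting each library for the GC content and length of genes. The 5 epithelial markers summed to between 1550 and 1710 CPM (counts scaled to library size) in Telaglenastat tumors, 2250 and 2550 in Combination tumors and 2620 and 3990 in Control and Palbociclib tumors, and were counted in every culture. The 7 adipocyte markers, of a cell type rich in these enzymes, summed to 3.35 CPM or less in every library. ADIPOQ, which defines adipocytes, was at 0 in all Control, Palbociclib and Combination tumors, but not in all Telaglenastat tumors. The 7 fibroblast markers summed to between 151 and 192 CPM in Control tumors, 109 and 187 in Palbociclib tumors, 48 and 61.9 in Telaglenastat tumors and 95.4 and 142 in Combination tumors, with DCN and LUM at 0 in all but Palbociclib tumors, where LUM was at 0. In cultures they summed to 8.05 CPM or less. The 5 endothelial markers reached at most 2.94 CPM, with CDH5 at 0 in every group. The 6 leukocyte markers summed to between 14.7 and 19.8 CPM in Control, 22.2 and 31.0 in Palbociclib, 3.02 and 10 in Telaglenastat and 10.2 and 16.7 in Combination tumors, with C1QA at 0. These are counts of human genes (build hg38), while host cells in these tumors are those of the mouse. Low sums thus cannot show that host adipocytes, fibroblasts, endothelium or leukocytes were absent, and the sums do not measure such cells. The part of host cells in the results below was not tested. In bulk RNA fewer cells of a type and less RNA per cell cannot be told apart. The marker sums were not corrected for GC content, and the part of the GC slopes in them was not tested.

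In Control tumors the genes spanned a wide range of levels. Per kilobase of exon, SCD had 416 ± 21.9 RPKM (SD, n = 3). ELOVL1 followed at 27.7 ± 1.18 RPKM and ELOVL5 at 24.8 ± 1.91 RPKM, with overlapping ranges. FASN at 19.9 ± 0.812 and ACACA at 19.4 ± 0.805 RPKM also overlapped. Below them came ELOVL6 (13.9 ± 0.270 RPKM), FADS1 (12.8 ± 0.57 RPKM), ACSS2 (10.3 ± 1.01 RPKM) and SREBF1 (6.71 ± 0.148 RPKM), in ranges that did not overlap. FADS2 was lowest, at 1.18 ± 0.0268 RPKM. Its reads numbered between 19 and 188 per library over the series, so its values were limited most by depth. Over all 28 libraries, CPM varied most for FADS2 (6.38-fold from the lowest to the highest library), FASN (5.6-fold) and SREBF1 (4.4-fold). It varied least for ACACA and ELOVL6 (1.69-fold each) and SCD (1.81-fold). The plot of CPM by library shows these levels.

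**Figure D1:**
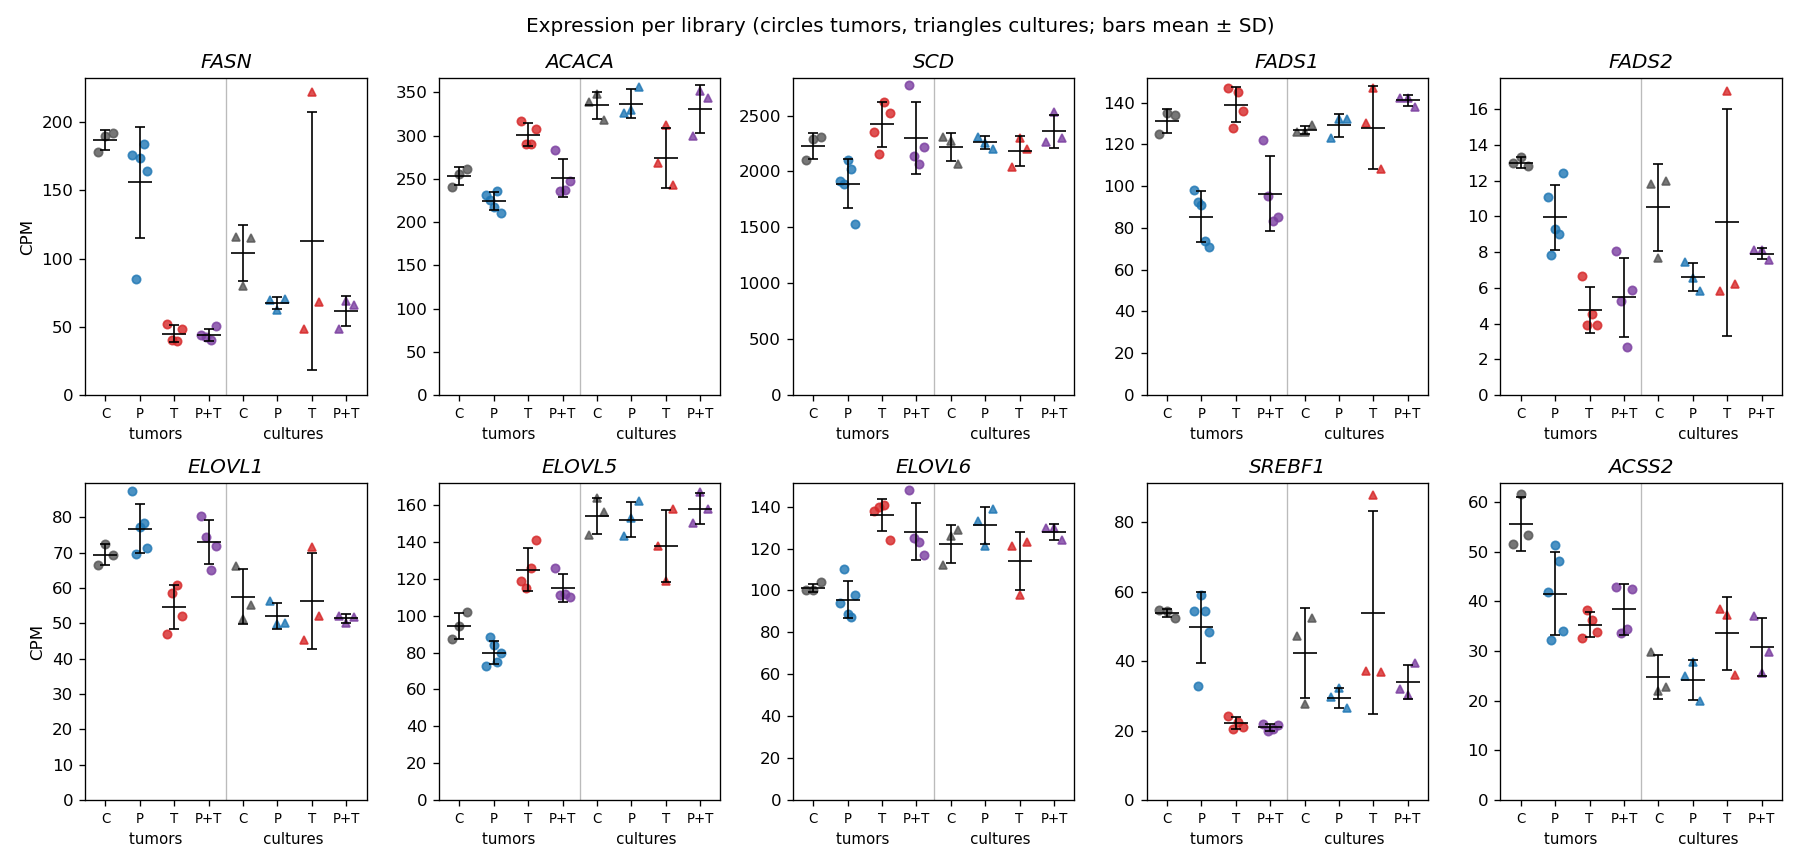
CPM (vertical axis, from 0) of each gene in each library, by treatment (C, Control; P, Palbociclib; T, Telaglenastat; P+T, Combination) in tumors (circles) and cultures (triangles), with the group mean and SD as bars. FASN and SREBF1 sit lowest in Telaglenastat and Combination tumors, FADS1 is low in Palbociclib and Combination tumors, and Telaglenastat culture 2 lies high for FASN (222 CPM), FADS2 and SREBF1 (87.8 CPM).

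The first question was what each drug did to these genes in tumors. Changes are log2 fold changes with standard errors from edgeR's quasi-likelihood test on all 16 tumors, and a gene was called at a Benjamini-Hochberg adjusted p under 0.05 over the 14848 genes tested. CPM values are scaled over all 28 libraries. Against the fold changes, which are scaled over tumors, this raises the ratio to Control by 0.11 (log2) for Telaglenastat and 0.10 for Combination tumors. With Palbociclib, 1 gene fell, FADS1. With Telaglenastat, 5 fell (FASN, FADS2, ELOVL1, SREBF1 and ACSS2) and 2 rose (ELOVL5 and ELOVL6). With the Combination, 5 fell (FASN, FADS1, FADS2, SREBF1 and ACSS2) and 1 rose (ELOVL6). Over all genes tested, 3.6% were called lower and 2.55% higher with Palbociclib. With Telaglenastat 28.5% were lower and 22.6% higher, and with the Combination 26.9% lower and 17.6% higher. The median change over the 10 genes was -0.23 with Palbociclib, -0.24 with Telaglenastat and -0.33 with the Combination, beside medians over all genes of 0.00067, 0.027 and -0.036.

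After the GC and length correction the calls were fewer with Telaglenastat and the Combination, while with Palbociclib they went from 1 to 2. With Palbociclib, FASN and FADS1 were lower, beside 3.62% of all genes lower and 4.22% higher. With Telaglenastat, FASN was lower and FADS1 higher, beside 6.43% of all genes lower and 6.63% higher. With the Combination, FASN was lower and ELOVL1 higher, beside 10.6% of all genes lower and 15.8% higher. FASN was lower in all 3 drug groups in the corrected fit. The corrected medians over the 10 genes were -0.19, 0.038 and -0.12, beside 0.021, 0.042 and 0.053 over all genes.

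**Figure D2:**
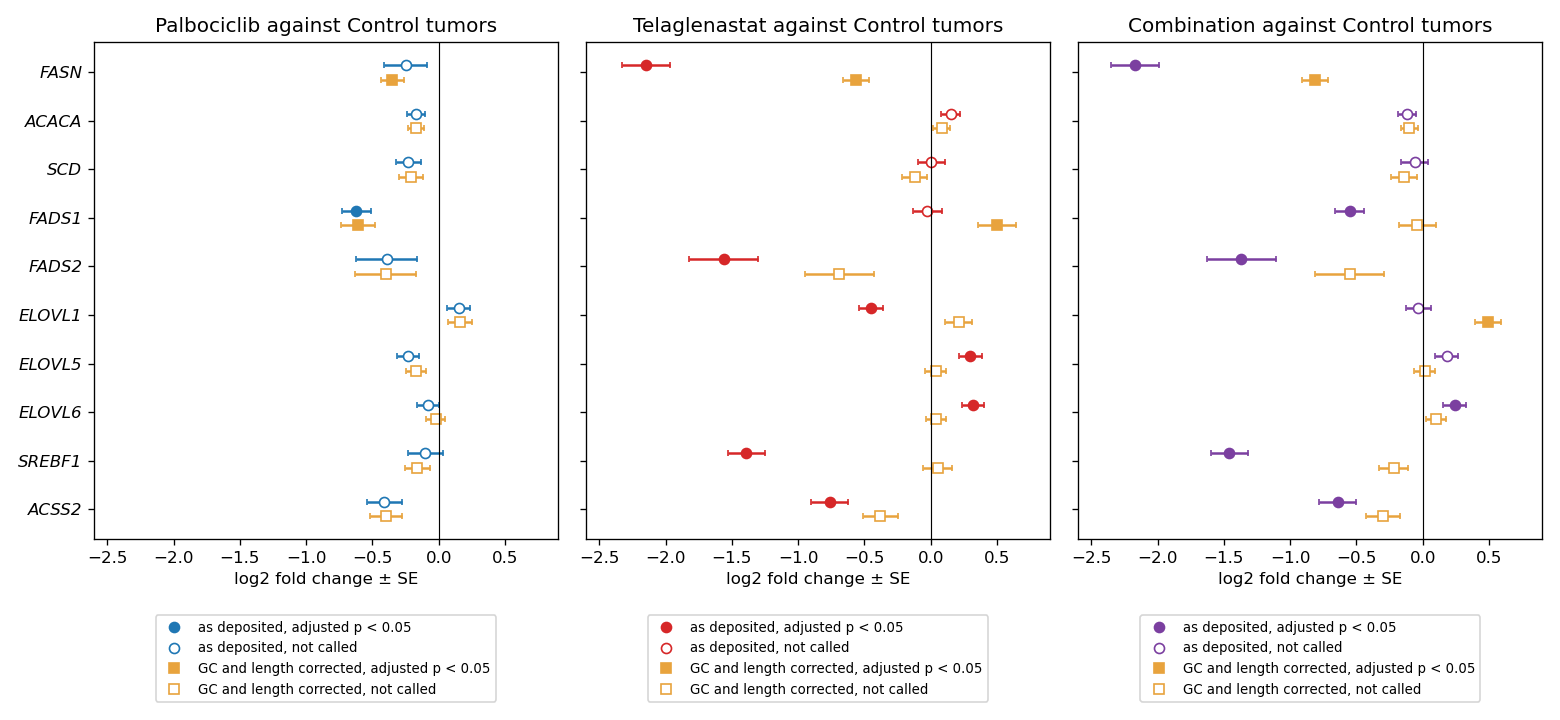
Log2 fold change ± SE against Control tumors (horizontal axis) of the 10 genes in Palbociclib, Telaglenastat and Combination tumors, from the counts as deposited (circles) and after the GC and length correction (squares), with filled symbols at an adjusted p under 0.05. FASN lies near -2.15 with Telaglenastat and at -0.56 after the correction, and FADS1 with Palbociclib stays at -0.62 and -0.61.

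FASN, the multienzyme that makes palmitate, had the largest change of the 10 genes with Telaglenastat and with the Combination before the correction. After it, FADS2 had a lower value with Telaglenastat. FASN stood at 178, 190 and 192 CPM in Control tumors and at 176, 85, 174, 184 and 164 CPM in Palbociclib tumors. It stood at 51.9, 40.6, 39.6 and 48.4 CPM in Telaglenastat tumors and at 43.7, 42.6, 40.4 and 50.6 CPM in Combination tumors. The values of both Telaglenastat-treated groups lay below all others, and those of Palbociclib and Control overlapped. The change was -2.15 ± 0.18 with Telaglenastat, or 4.45-fold lower (adjusted p = 2.07e-08), and -2.17 ± 0.18 with the Combination, or 4.51-fold lower (adjusted p = 3.79e-08). After the correction these became -0.56 ± 0.098 (1.48-fold lower, adjusted p = 0.000512) and -0.81 ± 0.098 (1.75-fold lower, adjusted p = 6.00e-06). The direction and the call held after the correction, at a smaller size. With Palbociclib the change was -0.25 ± 0.16 (adjusted p = 0.469) and -0.092 without Palbociclib tumor 2, and after the correction -0.35 ± 0.087 (adjusted p = 0.0156). Corrected and without that tumor, an alternative chosen after seeing the data, it was -0.30 (adjusted p = 0.0325).

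ACACA, which supplies FASN with malonyl-CoA, changed little. It stood at 241, 256 and 261 CPM in Control tumors and at 231, 225, 217, 236 and 211 CPM in Palbociclib tumors. It stood at 317, 290, 290 and 308 CPM in Telaglenastat tumors and at 283, 236, 237 and 247 CPM in Combination tumors. Every Telaglenastat tumor lay above every Control tumor and every Palbociclib tumor below, yet no change against Control passed the test. The changes were -0.17 ± 0.066 (adjusted p = 0.149), 0.15 ± 0.069 (adjusted p = 0.0864) and -0.12 ± 0.069 (adjusted p = 0.183), and after the correction -0.17, 0.082 and -0.10 (adjusted p of 0.0838 and above). DESeq2 called the rise with Telaglenastat (0.19, adjusted p = 0.0108).

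ACSS2, which activates acetate, stood at 51.6, 61.7 and 53.3 CPM in Control tumors and at 41.9, 32.3, 51.4, 48.1 and 34.0 CPM in Palbociclib tumors. It stood at 32.7, 38.2, 36.3 and 33.8 CPM in Telaglenastat tumors and at 43.0, 33.6, 34.4 and 42.5 CPM in Combination tumors. All treated tumors lay below all Control tumors. ACSS2 fell by 0.76 ± 0.14 (log2) with Telaglenastat (adjusted p = 0.000143) and by 0.64 ± 0.14 with the Combination (adjusted p = 0.000893). After the correction the changes were -0.38 ± 0.13 (adjusted p = 0.0683) and -0.30 ± 0.13 (adjusted p = 0.107), so both calls were lost. With Palbociclib the change was -0.41 ± 0.13 (adjusted p = 0.0684), and -0.40 ± 0.12 after the correction (adjusted p = 0.0513). Uncorrected, it passed the threshold without Palbociclib tumor 3 (-0.50, adjusted p = 0.0224) and without Palbociclib tumor 4 (-0.47, adjusted p = 0.0476). With all tumors it also passed with no filter on low counts (-0.39, adjusted p = 0.0129) and with at least 10 counts in every library (-0.41, adjusted p = 0.0459).

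SCD, the desaturase that makes oleate and palmitoleate, was by far the most abundant of the genes. It stood at 2100, 2290 and 2310 CPM in Control tumors and at 1910, 1890, 2100, 2020 and 1530 CPM in Palbociclib tumors. It stood at 2350, 2160, 2620 and 2520 CPM in Telaglenastat tumors and at 2770, 2140, 2070 and 2220 CPM in Combination tumors. Each group overlapped with Control. The changes against Control were -0.23 ± 0.095 (adjusted p = 0.173), 0.0056 ± 0.10 (adjusted p = 0.968) and -0.06 ± 0.10 (adjusted p = 0.661). After the correction they were -0.21, -0.12 and -0.14, that with Telaglenastat having changed sign. The 95% interval (normal approximation) with Telaglenastat ran from -0.19 to 0.20. In none of the 12 comparisons did edgeR call SCD, with or without the correction. DESeq2 called it in Combination against Palbociclib tumors (0.22, adjusted p = 0.022).

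FADS1, the delta-5 desaturase, was lower with Palbociclib in both fits. It stood at 125, 135 and 134 CPM in Control tumors and at 98.3, 92.5, 91.1, 73.5 and 71.0 CPM in Palbociclib tumors. It stood at 147, 128, 145 and 136 CPM in Telaglenastat tumors and at 122, 95.1, 83.1 and 85.4 CPM in Combination tumors. Every tumor that received Palbociclib, alone or with Telaglenastat, lay below every tumor that did not. FADS1 fell by 0.62 ± 0.11 (1.53-fold, adjusted p = 0.000799) with Palbociclib, and by 0.61 ± 0.13 after the correction (adjusted p = 0.00559). Its change ran from -0.66 to -0.56 when each library was left out in turn, with the call kept each time. With Telaglenastat the change was -0.027 ± 0.11 (adjusted p = 0.86), and after the correction 0.50 ± 0.14 higher (adjusted p = 0.0197). With the Combination it fell by 0.55 ± 0.11 (adjusted p = 0.000448), a call lost after the correction (-0.04 ± 0.14, adjusted p = 0.872).

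The Combination and Telaglenastat tumors, whose GC slopes were closer to each other than to Control, gave a further comparison of tumors with and without Palbociclib, in other animals. FADS1 was lower in Combination than in Telaglenastat tumors by -0.53 ± 0.11 (adjusted p = 0.00142), and by -0.54 ± 0.13 after the correction (adjusted p = 0.0073). The groups did not overlap, and the call held without each library in turn. In that comparison ACACA was lower too, by -0.26 ± 0.064 (adjusted p = 0.00695) and by -0.18 ± 0.058 after the correction (adjusted p = 0.0359). ELOVL1 was higher by 0.42 ± 0.086 (adjusted p = 0.00176) and by 0.28 ± 0.095 after the correction (adjusted p = 0.0487). These 3 genes were the ones called in both fits. Of all genes, 9.89% were lower and 8.93% higher, and after the correction 6.42% and 9.04%.

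FADS2, the delta-6 desaturase and the least abundant gene, stood at 13, 13.3 and 12.8 CPM in Control tumors and at 11.1, 7.84, 9.30, 9.03 and 12.4 CPM in Palbociclib tumors. It stood at 6.64, 3.91, 4.54 and 3.90 CPM in Telaglenastat tumors and at 8.05, 5.25, 2.67 and 5.89 CPM in Combination tumors. Each treated tumor was lower than each Control tumor. FADS2 fell by 1.56 ± 0.26 (2.95-fold) with Telaglenastat (adjusted p = 6.08e-05) and by 1.37 ± 0.26 (2.58-fold) with the Combination (adjusted p = 0.000246). After the correction the changes were -0.69 ± 0.26 (adjusted p = 0.0876) and -0.55 ± 0.26 (adjusted p = 0.125). With Palbociclib the change was -0.39 ± 0.23 (adjusted p = 0.43), and -0.40 after the correction (adjusted p = 0.358). Exons of FADS1 (chr11:61799625-61829318, GENCODE release 29 on GRCh38, minus strand) and FADS2 (chr11:61792980-61867354, plus strand) overlap over 490 bases. Whether reads were counted by strand was not stated, so reads from that stretch cannot be assigned with certainty. Exons of FADS2 also overlap those of FEN1 over 49 bases on the same strand, where counting by strand would not separate the genes.

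Of the 3 elongases, ELOVL1 fell with Telaglenastat before the correction, while ELOVL5 and ELOVL6 rose. ELOVL1, which lengthens saturated and monounsaturated chains to very long ones, stood at 66.5, 72.4 and 69.5 CPM in Control tumors and at 87.4, 69.7, 77.2, 78.5 and 71.3 CPM in Palbociclib tumors. It stood at 47.1, 58.6, 60.9 and 52.1 CPM in Telaglenastat tumors, below every Control tumor, and at 80.3, 74.6, 65.1 and 71.8 CPM in Combination tumors. It fell by 0.45 ± 0.091 with Telaglenastat (adjusted p = 0.000374), and after the correction the sign turned (0.21 ± 0.10, adjusted p = 0.191). With the Combination the change was -0.032 ± 0.091 (adjusted p = 0.799), and after the correction ELOVL1 was higher by 0.49 ± 0.099 (adjusted p = 0.000985). With Palbociclib it was 0.15 ± 0.086 (adjusted p = 0.379), and 0.16 after the correction (adjusted p = 0.375).

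ELOVL5, which extends polyunsaturated fatty acids, stood at 87.2, 94.4 and 102 CPM in Control tumors and at 72.6, 88.3, 84.0, 75.1 and 79.9 CPM in Palbociclib tumors. It stood at 119, 115, 126 and 141 CPM in Telaglenastat tumors and at 126, 111, 112 and 110 CPM in Combination tumors. Both Telaglenastat-treated groups lay above Control. ELOVL5 rose by 0.30 ± 0.086 with Telaglenastat (adjusted p = 0.00679), and after the correction the change was 0.038 ± 0.078 (adjusted p = 0.817). With the Combination it was 0.18 ± 0.086 (adjusted p = 0.0973), and with Palbociclib -0.23 ± 0.082 (adjusted p = 0.103), which passed the threshold without Palbociclib tumor 2 (-0.27, adjusted p = 0.0456). DESeq2 called the Combination (0.24, adjusted p = 0.0198). After the correction these were 0.014 with the Combination (adjusted p = 0.92) and -0.17 with Palbociclib (adjusted p = 0.19).

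ELOVL6, which extends palmitate to stearate, stood at 100, 100 and 104 CPM in Control tumors and at 94.0, 110, 89.0, 87.5 and 97.7 CPM in Palbociclib tumors. It stood at 138, 140, 141 and 124 CPM in Telaglenastat tumors and at 148, 125, 123 and 117 CPM in Combination tumors, all above Control. It rose by 0.32 ± 0.084 with Telaglenastat (adjusted p = 0.00381) and by 0.24 ± 0.084 with the Combination (adjusted p = 0.0278). After the correction the changes were 0.038 ± 0.076 (adjusted p = 0.812) and 0.10 ± 0.076 (adjusted p = 0.359). The Combination call was also lost without Control tumor 1 (adjusted p = 0.0748), Control tumor 2 (0.0893), Control tumor 3 (0.0524) or Combination tumor 1 (0.087). With Palbociclib the change was -0.08 ± 0.08 (adjusted p = 0.687), and -0.023 after the correction (adjusted p = 0.915).

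SREBF1, the regulator, stood at 54.6, 54.4 and 52.5 CPM in Control tumors and at 54.5, 32.8, 59.1, 54.4 and 48.3 CPM in Palbociclib tumors. It stood at 24.3, 20.5, 22.6 and 21.0 CPM in Telaglenastat tumors and at 21.8, 20.0, 20.5 and 21.5 CPM in Combination tumors, with no overlap with Control in either. SREBF1 fell by 1.39 ± 0.14 (2.63-fold) with Telaglenastat (adjusted p = 1.39e-07) and by 1.46 ± 0.14 (2.76-fold) with the Combination (adjusted p = 1.55e-07). After the correction these became 0.052 ± 0.11 (adjusted p = 0.816) and -0.22 ± 0.11 (adjusted p = 0.135). The corrected values of Telaglenastat and Control tumors overlapped. With Palbociclib the change was -0.10 ± 0.13 (adjusted p = 0.758), or 0.014 without Palbociclib tumor 2, and -0.16 after the correction (adjusted p = 0.367). Its exons overlap those of RAI1 on the opposite strand over 556 bases.

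The plot of changes against GC content sets the genes in the order of their exons. In Telaglenastat and Combination tumors the 3 genes with the highest GC content, FASN, SREBF1 and FADS2 (57.4%), had the lowest changes, and ELOVL6 and ELOVL5, with the lowest GC content, the highest. In Palbociclib tumors, whose GC slope was near that of Control tumors, the lowest change was that of FADS1 (54.4%), in the middle of the range.

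**Figure D3:**
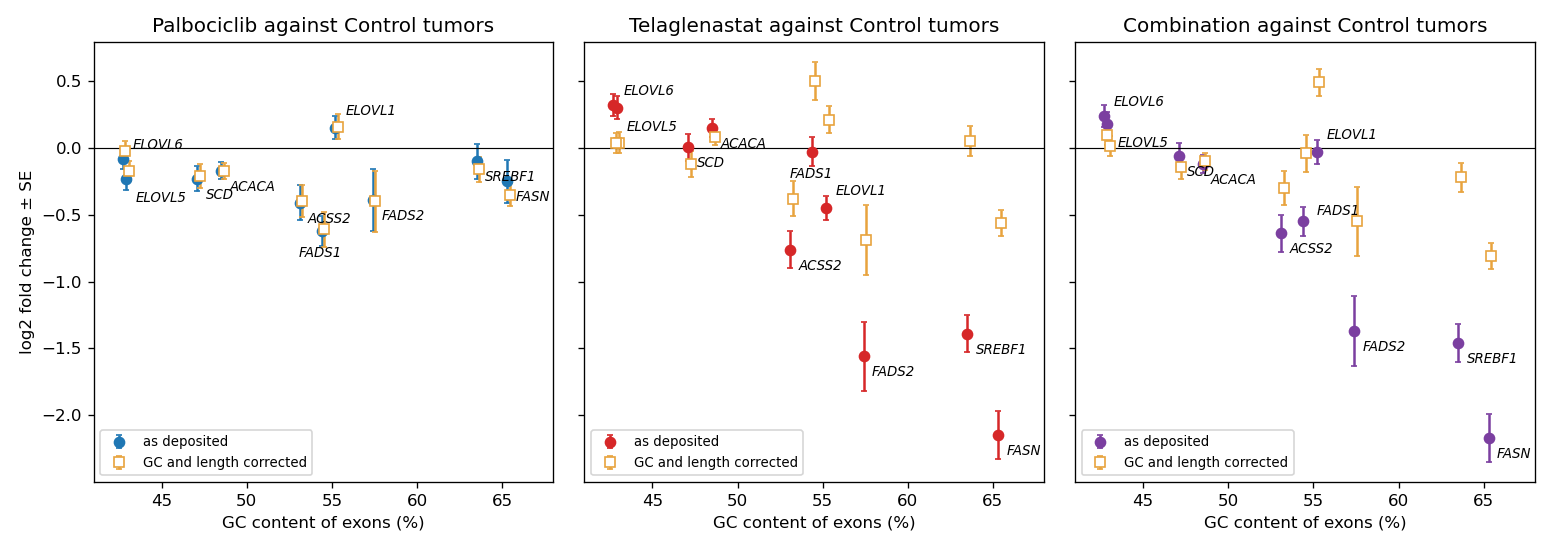
Log2 fold change ± SE against Control tumors (vertical axis) of the 10 genes by the GC content of their exons (horizontal axis, %), as deposited (filled circles) and after the GC and length correction (open squares). With Telaglenastat the deposited values run from about 0.32 for ELOVL6 down to -2.15 for FASN, and the corrected values from 0.50 for FADS1 to -0.69 for FADS2.

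The second question was what Telaglenastat added to Palbociclib. In Combination against Palbociclib tumors 3 genes were lower and 2 higher, beside 27.5% of all genes lower and 20.1% higher. FASN was lower by -1.93 ± 0.17 (adjusted p = 4.62e-08), SREBF1 by -1.36 ± 0.13 (adjusted p = 9.78e-08) and FADS2 by -0.98 ± 0.24 (adjusted p = 0.00219). ELOVL5 was higher by 0.41 ± 0.076 (adjusted p = 0.000167) and ELOVL6 by 0.31 ± 0.074 (adjusted p = 0.00158). After the correction FASN alone of these was called (-0.47 ± 0.089, adjusted p = 0.00116). FADS1 (0.57 ± 0.13, adjusted p = 0.00389) and ELOVL1 (0.33 ± 0.087, adjusted p = 0.0119) were higher in the corrected fit, beside 6.33% of all genes lower and 7.95% higher. Without the correction their changes were 0.063 and -0.18. Without Palbociclib tumor 2 the uncorrected fit also called ELOVL1 (-0.22, adjusted p = 0.0269) and ACSS2 (-0.31, adjusted p = 0.0336) lower.

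Other genes of the pathway were read from fixed lists, with up to 2 genes named per list and drug. Counts with Palbociclib, here and in the next paragraph, are set beside 3.6% of all genes lower and 2.55% higher. After the correction these shares were 3.62% and 4.22%. With Palbociclib HMGCS1, which makes HMG-CoA and was listed as a target of SREBP-2, went from 208 to 238 CPM in Control tumors to 137 to 157 CPM (-0.59 ± 0.078, adjusted p = 6.25e-05, corrected -0.52). The groups did not overlap. Of 12 SREBP and lipogenic regulators tested (of 13), edgeR called 1 and DESeq2 called 2. The gene edgeR called, INSIG1, which retains SREBP in the endoplasmic reticulum and is itself an SREBP target, went from 95 to 115 CPM in Control tumors to 54.2 to 63.3 CPM in Palbociclib tumors (-0.80 ± 0.10, adjusted p = 3.94e-05, corrected -0.77, adjusted p = 3.86e-05). Of 13 glycerolipid genes, LPIN1, a phosphatidate phosphatase, was the 1 that fell, from between 26.7 and 31.3 CPM to between 18.4 and 20.6 CPM (-0.57 ± 0.12, adjusted p = 0.00478, corrected -0.57, adjusted p = 0.00361). Of 7 other elongation genes tested (of 10), HACD2, a dehydratase of the elongation cycle, was the 1 that fell (-0.29 ± 0.082, adjusted p = 0.0403, corrected -0.22, adjusted p = 0.0592). After the correction TECR was the 1 called there (-0.52 ± 0.11, adjusted p = 0.00559). It was named after its values were seen, and uncorrected without Palbociclib tumor 2 it passed as well (-0.33, adjusted p = 0.013). The uncorrected HACD2 call was lost without any 1 of Control tumors 1, 2 and 3, Palbociclib tumors 1, 3, 4 and 5 and Telaglenastat tumor 4 (adjusted p = 0.188 at most). FADS1, HMGCS1, INSIG1 and LPIN1 kept their calls with Palbociclib after the correction.

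No gene was called by edgeR with Palbociclib among 4 tested for citrate and acetyl-CoA supply (of 5), 5 other desaturases and electron donors and 6 of mitochondrial fatty acid synthesis. In these lists 1, 2 and 0 genes had an unadjusted p under 0.05, and DESeq2 called 0 in each.

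With Telaglenastat many pathway genes passed, and the corrected values are given beside them. The counts stand beside 28.5% of all genes lower and 22.6% higher, and 6.43% and 6.63% after the correction. Of the 4 supply genes, 2 fell and 1 rose (1 lower after the correction). SLC25A1, the mitochondrial citrate exporter, fell from between 45.6 and 54.3 CPM to between 11.0 and 13.2 CPM (-2.18 ± 0.18, adjusted p = 1.71e-08, corrected -0.48, adjusted p = 0.0121). ACLY, which splits citrate into acetyl-CoA, fell by 0.55 ± 0.079 (adjusted p = 9.23e-06, corrected -0.15). Among the elongation genes 1 fell and 3 rose (1 lower after the correction). TECR, the last enzyme of the cycle, fell by 1.75 ± 0.18 (adjusted p = 1.56e-07, corrected -0.67, adjusted p = 0.00122), and HACD3 rose by 0.30 (corrected 0.036). Of the 5 desaturase genes 2 fell (1 after the correction). FADS3 fell by 2.23 ± 0.25 (adjusted p = 5.82e-07, corrected -1.15, adjusted p = 0.000473), and CYB5R3, which passes electrons to cytochrome b5, by 1.36 (corrected -0.16). FADS3, the paralog beside FADS2, was counted at 2.65 to 4.37 CPM in Telaglenastat tumors and at 13.7 to 15.8 CPM in Control tumors.

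In mitochondrial fatty acid synthesis 2 genes fell and 2 rose (1 each after the correction), with MECR at -1.57 ± 0.23 (corrected -0.95, adjusted p = 0.00341) and MCAT at -1.58 ± 0.23 (corrected -0.44). Of the 12 regulators 7 fell and 1 rose (2 and 1 after the correction). These Telaglenastat counts, too, stand beside 28.5% of all genes lower and 22.6% higher, and 6.43% and 6.63% after the correction. SCAP, the escort of SREBP, fell by 1.81 ± 0.19 (corrected -0.59, adjusted p = 0.00748) and SREBF2, which encodes SREBP-2, by 0.95 ± 0.11 (corrected -0.11). Of 13 glycerolipid genes 8 fell and 3 rose (2 and 2 after the correction), with AGPAT1 at -1.11 ± 0.11 (corrected -0.39, adjusted p = 0.00656) and DGAT1 at -1.46 ± 0.17 (corrected -0.01).

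The Combination counts stand beside 26.9% of all genes lower and 17.6% higher, and 10.6% and 15.8% after the correction. In the supply list 3 genes fell (2 after the correction), with SLC25A1 at -1.88 ± 0.17 (corrected -0.54, adjusted p = 0.00209) and ACLY at -0.53 ± 0.079 (corrected -0.17). Among the elongation genes 1 fell and 2 rose (1 and 1 after the correction). TECR fell by 1.89 ± 0.18 (corrected -0.95, adjusted p = 2.11e-05), and HSD17B12, the ketoreductase of the cycle, rose by 0.43 ± 0.098 (corrected 0.28, adjusted p = 0.0308). Among the desaturase genes 2 fell and 2 rose (2 higher after the correction). CYB5A, cytochrome b5, rose from between 14.9 and 20.6 CPM to between 30.7 and 34.3 CPM (0.75 ± 0.13, corrected 0.62, adjusted p = 0.00134), and CYB5R3 fell by 1.25 (corrected -0.21). In mitochondrial fatty acid synthesis 2 fell and 1 rose, with MCAT at -1.37 ± 0.23 (corrected -0.45) and MECR at -0.92 ± 0.22 (corrected -0.39). After the correction edgeR called 0 of them, with 1 at an unadjusted p under 0.05, and DESeq2, uncorrected, called 4. Among the regulators 7 fell and 2 rose (4 and 2 after the correction), with SREBF2 at -1.12 ± 0.11 (corrected -0.35, adjusted p = 0.0187) and SCAP at -1.52 ± 0.19 (corrected -0.46, adjusted p = 0.0175). Of the glycerolipid genes 6 fell and 1 rose (1 and 2 after the correction), with AGPAT1 at -0.83 (corrected -0.22) and DGAT1 at -0.96 (corrected 0.25). HMGCS1 fell by 0.24 ± 0.082 (adjusted p = 0.0225, corrected -0.41, adjusted p = 0.000745). The uncorrected HMGCS1 call was lost without Control tumor 2 or 3 or Combination tumor 3 (adjusted p from 0.0695 to 0.104). INSIG1 (-0.54 ± 0.11, adjusted p = 0.000356, corrected -0.65, adjusted p = 0.00012) and LPIN1 (-0.56 ± 0.13, adjusted p = 0.00113, corrected -0.57, adjusted p = 0.00192), which had fallen with Palbociclib, fell with the Combination as well and were named here after their values were seen. With Telaglenastat alone LPIN1 fell too (-0.34 ± 0.13, adjusted p = 0.0277, corrected -0.42, adjusted p = 0.0256). INSIG1 with Telaglenastat alone was at -0.25 ± 0.11 (adjusted p = 0.0537), and called lower after the correction (-0.37, adjusted p = 0.0197). Of the list genes named here, TECR, SLC25A1, SCAP and LPIN1 were called lower in both Telaglenastat-treated groups in both fits.

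The third question was whether any change was still present in cultures grown without drug. Against Control cultures, edgeR called none of the 10 genes in Palbociclib, Telaglenastat or Combination cultures, with or without the correction. DESeq2 called none in Palbociclib and Combination cultures, and gave no adjusted p for 8 of the 10 genes in Telaglenastat cultures. At an unadjusted p under 0.05 there were 0, 1 and 0 genes, and after the correction 1, 3 and 2. Of the 13985 genes tested, the shares called were 0%, 0% and 0.00715%, and the same after the correction (0%, 0% and 0.00715%). Changes of the 10 genes ran from -0.67 to 0.10 in Palbociclib cultures, from -0.30 to 0.42 in Telaglenastat cultures and from -0.76 to 0.31 in Combination cultures. After the correction they ran from -0.30 to 0.25, from -0.24 to 0.40 and from -0.27 to 0.42. Before it, standard errors ran from 0.31 to 0.41 for FASN, FADS2 and SREBF1 and from 0.10 to 0.11 for SCD, FADS1, ACACA, ELOVL5 and ELOVL6. FADS1 stood at 126, 126 and 129 CPM in Control cultures and at 123, 132 and 132 CPM in Palbociclib cultures. The ranges overlapped, and the 95% interval of the change ran from -0.19 to 0.24. FASN stood at 116, 79.7 and 115 CPM in Control, 69.9, 62.3 and 70.2 CPM in Palbociclib, 48.8, 222 and 68.6 CPM in Telaglenastat and 48.8, 68.9 and 66.4 CPM in Combination cultures. The Palbociclib and Combination cultures lay below the Control cultures, without passing the test (-0.62 and -0.76), and their GC slopes (-0.311 and -0.277 on average) lay below that of Control cultures (-0.0593). After the correction the ranges overlapped and the changes were -0.0096 and -0.27. Control culture 2, the lowest Control culture for FASN, had a GC slope of -0.2525, beside 0.0149 and 0.0595 in the other Control cultures. The value of 222 CPM came from Telaglenastat culture 2, the library with the GC slope of 0.36. SREBF1 in that library was at 87.8 CPM, beside 37.2 and 37.0 CPM in the other two. Over the 12 cultures ACACA ran from 243 to 356 CPM, SCD from 2040 to 2530, FADS1 from 108 to 147 and FADS2 from 5.80 to 17.0 CPM. ELOVL1 ran from 45.4 to 71.5 CPM, ELOVL5 from 119 to 167, ELOVL6 from 97.9 to 139 and ACSS2 from 19.9 to 38.5 CPM. In Telaglenastat culture 2 FADS2 and ELOVL1 were at their highest and ELOVL5 and ELOVL6 at their lowest. With no filter on low counts, uncorrected, FASN was called in Palbociclib and Combination cultures.

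Drug changes in tumors were tested against those in cultures in a fit of all 28 libraries over 15466 genes. With Palbociclib, FADS1 differed (-0.65 ± 0.17, adjusted p = 0.0496, corrected -0.82 ± 0.20, adjusted p = 0.0394), beside 1.39% of all genes, and 0.912% after the correction. The uncorrected call lay at the threshold and held without 8 of the 28 libraries, namely Palbociclib tumors 1 and 2, Combination tumors 1, 3 and 4 and the 3 Telaglenastat cultures. It was lost without any of the other 20, at adjusted p up to 0.138. With Telaglenastat, 7 genes differed, beside 34.1% of all genes. FASN (-2.18 ± 0.45, adjusted p = 0.000772), FADS2 (-1.36 ± 0.45, adjusted p = 0.0209), SREBF1 (-1.65 ± 0.34, adjusted p = 0.000788) and ACSS2 (-1.10 ± 0.25, adjusted p = 0.00195) had a lower log2 change in tumors than in cultures. ACACA (0.54 ± 0.12, adjusted p = 0.00182), ELOVL5 (0.57 ± 0.14, adjusted p = 0.00321) and ELOVL6 (0.52 ± 0.14, adjusted p = 0.00497) had a higher log2 change in tumors than in cultures. Without Telaglenastat culture 2 the differences were -1.23 for FASN, -1.09 for SREBF1 and -0.65 for FADS2, whose call was lost (adjusted p = 0.236), as it was without Control culture 2 (adjusted p = 0.0712). After the correction ACACA alone was called (0.42 ± 0.12, adjusted p = 0.0366), beside 5.99% of all genes. ELOVL1, at -0.32 uncorrected and 0.51 corrected (adjusted p = 0.18 and 0.0543), was called in the uncorrected fit without Telaglenastat culture 1 (-0.45, adjusted p = 0.0415).

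With the Combination edgeR called 0 genes, with 4 at an unadjusted p under 0.05, beside 2.91% of all genes, while DESeq2 called 3 (FADS1, SREBF1 and ACSS2). ELOVL1 was called after the correction (0.57 ± 0.16, adjusted p = 0.0382), beside 4.45% of all genes. Calls appeared without Combination tumor 1 (FADS1), Telaglenastat culture 1 (FASN, FADS1 and ACSS2), Telaglenastat culture 2 (FASN, FADS1, SREBF1 and ACSS2) or Telaglenastat culture 3 (FADS1, SREBF1 and ACSS2). The correction moved the median of all genes from 0.04 to 0.14 for the Telaglenastat difference and from 0.027 to 0.13 for the Combination difference, so its values are read against those medians. The 3 drug comparisons share the Control libraries.

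**Figure D4:**
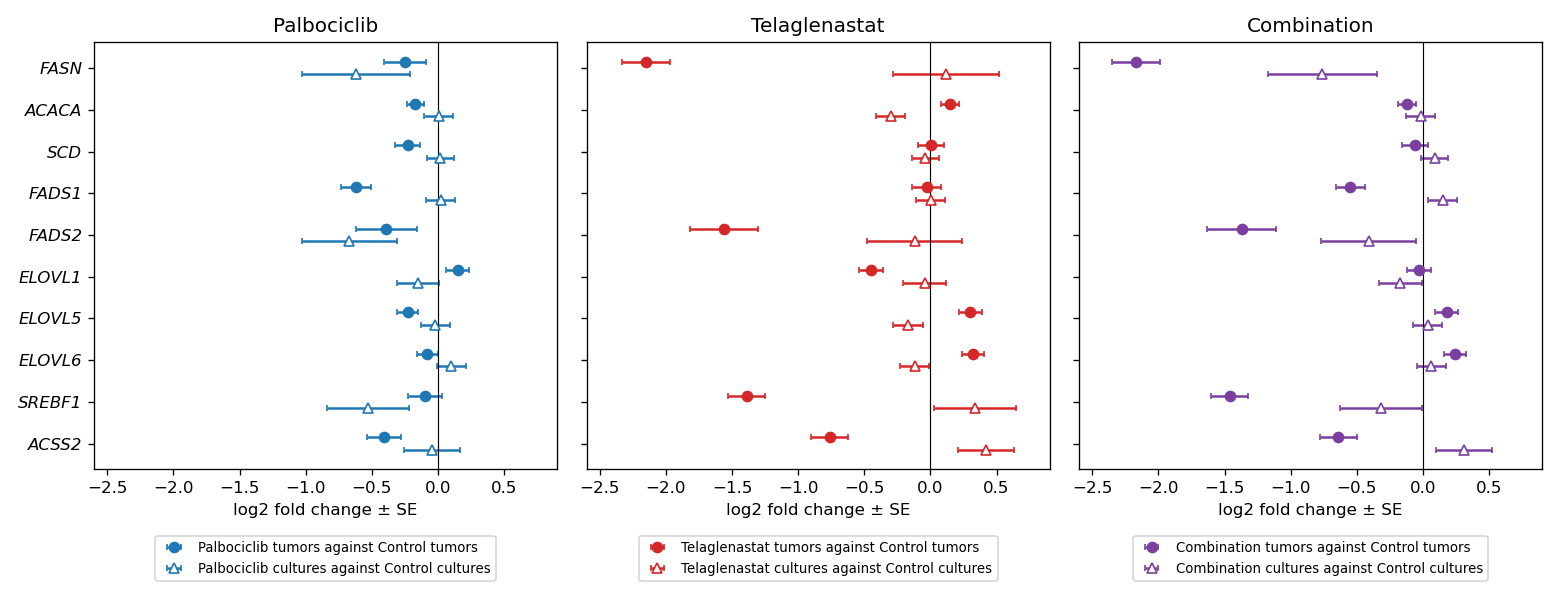
Log2 fold change ± SE (horizontal axis) of the 10 genes against Control, in tumors (filled circles) and in cultures grown without drug (open triangles), for each drug. In tumors FASN lies near -2.15 with Telaglenastat and FADS1 at -0.62 with Palbociclib, while in cultures no gene was called and the error bars of FASN, FADS2 and SREBF1 are wide.

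The last comparison set Control tumors against Control cultures. Of the 10 genes 3 were lower in tumors and 2 higher, beside 22.8% of all genes lower and 23.1% higher. After the correction 4 were lower and 1 higher, beside 25.4% lower and 15.6% higher, and the median of all genes moved from 0.067 to -0.086. ACSS2 stood at 51.6 to 61.7 CPM in tumors and at 21.9 to 29.9 CPM in cultures (1.16 ± 0.19 higher in tumors, 2.24-fold, adjusted p = 1.24e-05, corrected 0.88 ± 0.17, adjusted p = 0.000156). ELOVL5 stood at 87.2 to 102 CPM in tumors and at 144, 164 and 156 CPM in cultures (-0.71 ± 0.10, adjusted p = 2.95e-06, corrected -0.46, adjusted p = 5.22e-05). ACACA stood at 241 to 261 CPM in tumors and at 339, 348 and 318 CPM in cultures (-0.40 ± 0.09, adjusted p = 0.000576, corrected -0.53, adjusted p = 1.79e-05). None of these 3 overlapped, and each kept its call without any single library.

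The other calls of that comparison depended on the fit. FASN was higher in tumors (0.85 ± 0.32, adjusted p = 0.0319), with -0.28 after the correction (adjusted p = 0.147). That call was lost without Control tumor 1, 2 or 3 or Control culture 2 (adjusted p from 0.0518 to 0.144). ELOVL6 was lower in tumors (-0.27 ± 0.10, adjusted p = 0.0291, corrected -0.10), a call lost without Control tumor 1 or 2, Control culture 2 or 3 or Combination culture 3. ELOVL1 (0.27 ± 0.13, adjusted p = 0.0949) was called without Control culture 1 or Telaglenastat culture 2. FADS1 and SREBF1 were lower in tumors in the corrected fit only (-0.45 ± 0.15, adjusted p = 0.0158, and -0.64 ± 0.12, adjusted p = 6.40e-05), and at 0.048 and 0.35 before it. SCD differed by 0.0076 ± 0.11 (adjusted p = 0.962), with a 95% interval from -0.21 to 0.22.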

How the data were processed

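RNA was sequenced from 16 HCT116 xenograft tumors and 12 cultures grown from such tumors, as strand-specific poly(A) libraries with single-end reads. The authors deposited raw read counts per gene. Per the labels, the submitters' processing notes name CASAVA 1.8, STAR (version not given in the sources used here) and the build hg38. The annotation release and whether reads were counted by strand were not given in the sources used here, and reads of overlapping genes may be shared. Gene coordinates, GC content and length came from GENCODE release 29, which matched 57895 of the 58278 genes (55067 of them at the same version), with 0.0425% of counts in unmatched genes.

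Groups followed the sample labels. Tumors were fitted together, cultures together, and comparisons between them over all 28 libraries, with edgeR 4.0.16 in R 4.3.3 (TMM scaling, filterByExpr with min.count 10, quasi-likelihood test, Benjamini-Hochberg adjustment over all genes tested, threshold 0.05), in 12 comparisons. The correction fitted each library's log2 expression, relative to the mean over libraries, on GC content and log length with splines of 4 degrees of freedom (rlm, MASS 7.3.60.0.1) and used the trend as an offset. DESeq2 1.42.0, other filters, size factors, a replicate block and leaving out each library were alternatives. The script was tested on simulated counts. A correction of this kind removes any change that follows GC content, whatever its source. The 10 genes, the lists and the tests were chosen with earlier results of these data known. All 10 genes are named. From each other list, up to 2 genes per drug with the smallest adjusted p among those called are named. Some genes that this rule selects, and the counts of their list, are not reported here. CPM and RPKM were computed here from the counts. Precision was limited by the totals of 6273834 to 13815675 reads per library and by the spread between samples. The p-values set a difference against that spread. No replicates held identical values, and replicate pairs differed by more than sampling noise (chi-square per gene of at least 4.15).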

Additional observations from a re-analysis of the deposited data

Results flagged for a closer look

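In 3 of the 30 sets of a gene and a tumor group of 4 or 5 checked, 1 tumor lay far from the others by Dixon's test, which chance gives in about 1 in 20 sets. FASN stood at 85 CPM in Palbociclib tumor 2, below the other 4. ELOVL5 stood at 126 CPM in Combination tumor 1, above the other 3. ELOVL6 stood at 124 CPM in Telaglenastat tumor 4, below the other 3. The GC slope of Palbociclib tumor 2 was 0.238, the lowest of its group. Its part in the FASN value was not tested.

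Of 30 drug changes tested between tumors and cultures by an interaction term in edgeR, 8 differed. With Palbociclib FADS1 did (-0.65). With Telaglenastat the differences were -2.18 for FASN, 0.54 for ACACA, -1.36 for FADS2, 0.57 for ELOVL5, 0.52 for ELOVL6, -1.65 for SREBF1 and -1.10 for ACSS2. Over all genes, 1.39% differed with Palbociclib, 34.1% with Telaglenastat and 2.91% with the Combination. Without Telaglenastat culture 2 the FASN difference was -1.23 and the FADS2 call was lost. After the GC and length correction FADS1 (-0.82, adjusted p = 0.0394) and ACACA (0.42, adjusted p = 0.0366) were called among these. The corrected shares over all genes were 0.912% with Palbociclib and 5.99% with Telaglenastat.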

How the results depend on the processing

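Main counts of the 10 genes called are given first, then those that moved by over 1.5 times. Palbociclib against Control tumors gave 1, and 2 with no filter, with at least 10 counts in every library, with the GC and length correction (alone, with the replicate block, or without Palbociclib tumor 2), and 1 to 2 without each library. Telaglenastat against Control gave 7 (7 to 7 without each library) and 2 under those 3 corrected fits. Combination against Control gave 6 (5 to 6) and 2 under them. Combination against Palbociclib gave 5 (5 to 7), with 3 corrected, 2 corrected with the replicate block and 3 corrected without Palbociclib tumor 2. Combination against Telaglenastat gave 3 (3 to 3), and 1 corrected with the block. Palbociclib and Combination cultures gave 0 (0 to 0), and 1 with no filter. Control tumors against cultures gave 5 (3 to 6), and 3 with the replicate block. The Palbociclib difference between tumors and cultures gave 1 (0 to 1), and 0 with the block, corrected or not. The Telaglenastat difference gave 7 (6 to 8), with 4 unfiltered, 1 corrected, 2 corrected with the block and 1 corrected without Palbociclib tumor 2 or Telaglenastat culture 2. The Combination difference gave 0 (0 to 4), with 1 under DESeq2 size factors, 4 unfiltered, 2 under the strict filter, 4 with only the groups compared, 3 by DESeq2 and 1 corrected, also without either library. The corrections without Palbociclib tumor 2 or Telaglenastat culture 2 were chosen after seeing the data. The causes were not tested.

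Signs turned as follows. SCD with Telaglenastat became -0.032 (strict filter), -0.0066 (block), -0.12 (corrected), -0.14 (corrected with block), -0.0033 (only the groups compared) and -0.13 (corrected without Palbociclib tumor 2). FADS1 with Telaglenastat became 0.017 (size factors, block, DESeq2), 0.027 (no filter), 0.50 (corrected, with or without Palbociclib tumor 2) and 0.57 (corrected with block). ELOVL1 with Telaglenastat became 0.21, 0.22 with the block and 0.21 without Palbociclib tumor 2, all corrected, and SREBF1 0.052, 0.07 and 0.049 in that order. With the Combination, SCD became 0.0016 (size factors, DESeq2), FADS1 0.018 and ELOVL5 -0.0023 (corrected with block), DGAT1 0.25, 0.22 with the block and 0.25 without Palbociclib tumor 2 (corrected), and ELOVL1 0.029 (size factors, DESeq2), 0.013 (no filter), 0.0073 (only the groups compared) and 0.49, 0.50 and 0.49 in the 3 corrected fits. ELOVL1 in Combination against Palbociclib became 0.33, 0.29 with the block and 0.35 without Palbociclib tumor 2, corrected. In Control tumors against cultures the corrected values, then those with the block and without Palbociclib tumor 2 or Telaglenastat culture 2, were -0.28, -0.46, -0.28 and -0.26 for FASN, -0.45, -0.90, -0.45 and -0.45 for FADS1 and -0.64, -1.0, -0.64 and -0.63 for SREBF1. FADS1 was also -0.27 with the block alone. Leaving out each library gave ranges across 0 for SREBF1 with Palbociclib (-0.17 to 0.014), SCD with Telaglenastat (-0.036 to 0.052), FADS1 with Telaglenastat (-0.063 to 0.0065), ELOVL1 with the Combination (-0.062 to 0.014) and FADS1 in Combination against Palbociclib (-0.048 to 0.12).

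Samples with the same replicate number did not deviate together (correlations from -0.687 to 0.34), so the numbers were not taken to pair samples. With the replicate block, 83 of the 92 gene results kept direction and call. Among those no longer called were HACD2 with Palbociclib (-0.25), HMGCS1 with the Combination (-0.22), FASN (1.05) and ELOVL6 (-0.33) in Control tumors against cultures and the FADS1 difference with Palbociclib (-0.55). Of the 92, 43 kept direction and call under the GC and length correction, 85 under DESeq2 and 87 under the strict filter. FADS2, at 19 to 188 reads per library, was limited most by depth.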
